A study of Mus musculus with 26 samples.

Results

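The 45 mitosis and kinetochore genes described here were taken by name: they build the spindle, attach chromosomes to it, drive entry into mitosis or end it. All 45 were found among the 19404 genes listed for Brg1 deletion and among the 19719 listed for Brg1 knockdown, in RNA-seq of mouse pro-B cells grown in culture. Brg1, encoded by Smarca4, is the ATPase of the SWI/SNF chromatin remodelling complexes. In the deletion experiment the Brg1-deleted cells were C57/Bl6 Brg1F/F x ER-Cre (2 libraries) and the control cells Brg1+/+ x ER-Cre (2 libraries), so both carried the tamoxifen-activated recombinase, and both were given tamoxifen at 0.3 µM over the final 60 hours. For the knockdown, C57/Bl6 Rag1-/- cells, which cannot rearrange antigen receptor genes, received retrovirus with a Brg1 shRNA (3 libraries) or a control shRNA (3 libraries) on days 3 and 4 and were enriched on hCD25 beads for infected cells. All cultures started from B220+ bone marrow cells and ran for 7 days with IL7 and SCF. The promoter that drives ER-Cre is not given in the sources used here. No source states whether replicate libraries derive from different mice, so p-values weigh a difference only against the spread between libraries.

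Cyclins A and B with the kinase Cdk1 carry a cell into mitosis, and the kinases Plk1, Aurka and Aurkb then organise the spindle. Kinetochores, protein plates on the centromeres, hold the chromosomes to spindle microtubules, and the spindle checkpoint blocks the anaphase-promoting complex until every chromosome is held. Transcripts of most of these genes peak in G2 and M phase, through the MuvB complex with Myb and Foxm1, so in bulk RNA their level follows the share of dividing cells as well as the transcript level per cell, and fewer dividing cells and less RNA per cell cannot be told apart. Pro-B cells held in IL7 divide fast.

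Each deposited table holds 1 mean per group and gene, in normalized reads (reads divided by a library size factor), with the authors' own test. The deletion means could be resolved into the whole reads of both libraries for 94.4% of genes. Where a mean had several solutions, the most even one was taken for the library totals. These were an estimated 11577828 and 8791223 reads for the deleted group and 10780762 and 10200572 for controls. The knockdown libraries held an estimated 11051850, 9839027 and 8304082 reads with the Brg1 shRNA and 10509709, 9422267 and 5201290 with the control shRNA, and their means cannot be resolved by library. Smarca4 fell 2.95-fold on deletion and 1.98-fold on knockdown in the authors' deposited table (adjusted p of 0.0008 and 0.0472). The B cell markers Cd79a, Cd79b, Pax5 and Ebf1 were listed in both tables. Of 11 B lineage markers, 6 lay above 0 and 5 below on deletion, 1 of them called higher and 0 lower in the authors' deposited table, with summed means of 74178.8 normalized reads in deleted cells and 50942.7 in controls. In the deletion experiment all 16 of 16 myeloid markers lay below 0, with sums of 4436 in deleted cells and 8839 in controls. The authors' deposited table called 4 of these 16 lower and 0 higher.

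Promoters of G2/M genes are known for 2 short elements, the CHR, bound by MuvB, and the CCAAT box, bound by NF-Y. RefSeq promoter windows (GRCm38.p6, 250 bases before to 50 after the annotated start) were held for 36 of the 45 members. For each gene only the first window listed was used, which need not be at its main start. The letters TTTGAA or TTCGAA, searched on both strands, were present in 28 of 36 windows (77.8%), where 19.4% of 27025 genes had them. CCAAT, searched on both strands (ATTGG on the other), was present in 28 of 36 (77.8%), against 37.9% of all genes, and both were present in 25 (69.4%), against 7.7%. Matches of the 2 motifs may overlap. These letters mark a possible element, not a bound site. The stretches below run from 150 bases before to 50 after the start, with CHR letters and CCAAT on either strand in capitals. They show the 4 members with the lowest deletion p among those with a window, Bub1b (chr2:118598061-118598260, plus strand), Ccnb1 (chr13:100786437-100786636, minus strand), Plk1 (chr7:122159285-122159484, plus strand) and Cdk1 (chr10:69352863-69353062, minus strand), and for contrast Ccnb2 (chr9:70421505-70421704, minus strand) and Fzr1 (chr10:81378321-81378520, minus strand), whose means lay just above their controls.
Bub1b: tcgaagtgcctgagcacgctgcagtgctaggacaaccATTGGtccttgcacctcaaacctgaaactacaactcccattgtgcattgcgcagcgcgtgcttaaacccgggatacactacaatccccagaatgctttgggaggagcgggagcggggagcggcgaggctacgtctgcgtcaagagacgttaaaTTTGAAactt
Ccnb1: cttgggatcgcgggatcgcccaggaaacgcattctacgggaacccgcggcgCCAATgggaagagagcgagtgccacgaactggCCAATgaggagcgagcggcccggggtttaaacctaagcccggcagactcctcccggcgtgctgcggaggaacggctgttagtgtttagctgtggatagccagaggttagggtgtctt
Plk1: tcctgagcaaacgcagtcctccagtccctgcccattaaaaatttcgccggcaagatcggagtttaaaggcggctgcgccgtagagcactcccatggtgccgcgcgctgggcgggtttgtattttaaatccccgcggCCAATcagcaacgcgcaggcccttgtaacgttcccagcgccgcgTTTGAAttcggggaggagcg
Cdk1: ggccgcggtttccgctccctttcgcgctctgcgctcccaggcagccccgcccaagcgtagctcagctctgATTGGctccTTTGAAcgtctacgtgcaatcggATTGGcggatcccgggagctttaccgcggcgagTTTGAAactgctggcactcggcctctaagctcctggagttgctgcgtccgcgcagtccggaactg
Ccnb2: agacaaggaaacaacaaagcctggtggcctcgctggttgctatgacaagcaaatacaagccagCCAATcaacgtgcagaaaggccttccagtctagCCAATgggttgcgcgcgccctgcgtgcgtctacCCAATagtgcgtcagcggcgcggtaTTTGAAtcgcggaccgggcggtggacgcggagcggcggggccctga
Fzr1: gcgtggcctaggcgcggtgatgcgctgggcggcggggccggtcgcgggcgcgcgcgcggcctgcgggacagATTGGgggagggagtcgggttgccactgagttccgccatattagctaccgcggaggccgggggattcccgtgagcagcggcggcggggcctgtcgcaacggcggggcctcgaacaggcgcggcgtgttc

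The Bub1b, Plk1, Cdk1 and Ccnb2 stretches carry both motifs, the Ccnb1 stretch has CCAAT without these CHR letters, and the Fzr1 stretch has a lone CCAAT on the other strand. The window of Kif2c, the other member with a window and a mean above its control after deletion, is not shown. It has CHR letters and no CCAAT. This window lies inside the gene: it ends at 117179022, while the gene, on the minus strand, reaches 117182639. Among members, 26 of 38 CHR matches (68.4%) began within 50 bases of the start, against 24.7% of 6066 matches over all genes. In 25 of the 28 members with CHR letters a CCAAT box lay upstream of them. The shortest distance per member had a median of 35.0 bases and was 20 to 45 bases in 13 of the 25. Spacing over all genes was not computed, so these distances have no background beside them. The 28 members with CHR letters had a median log2 ratio of -0.36 on deletion and -0.16 on knockdown, and the 8 members without had -0.39 and -0.07, given as a description with no test.

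**Figure D1:**
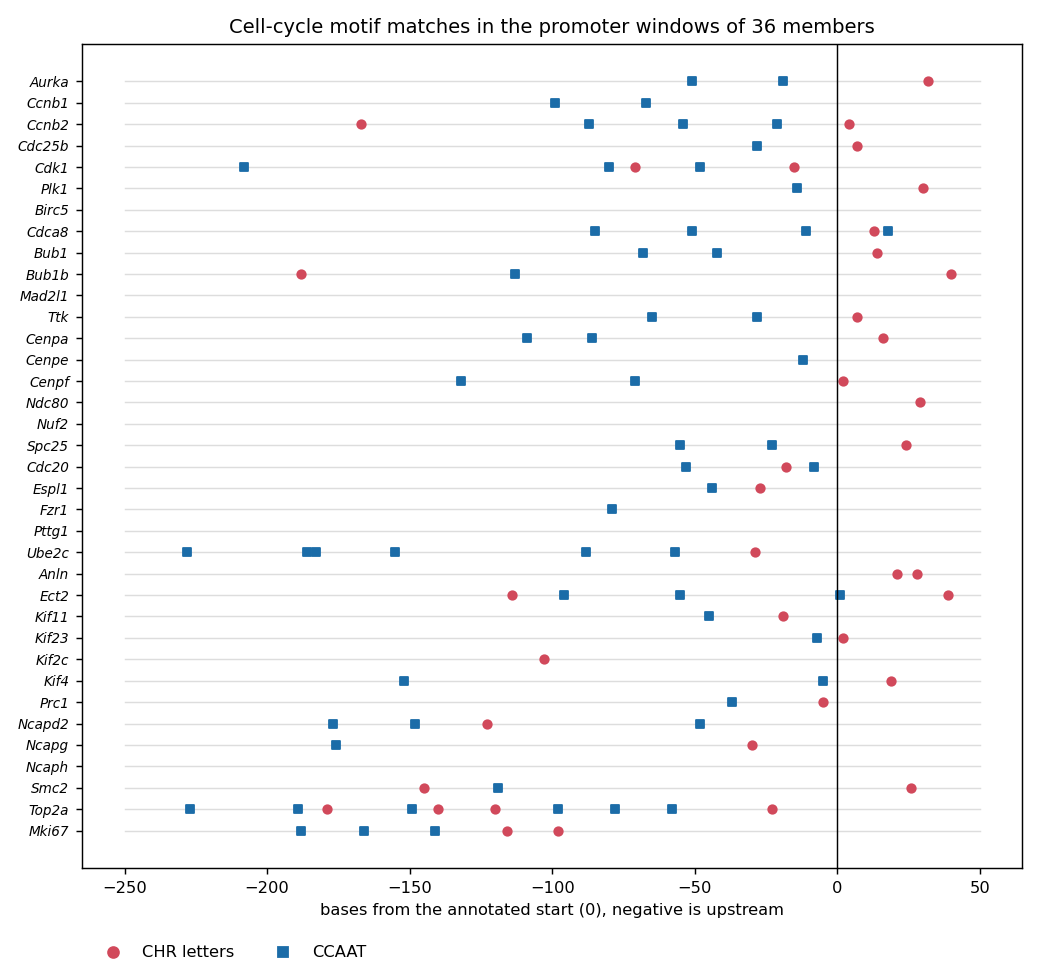
Positions of CHR letters (red circles) and CCAAT (blue squares), on either strand, in the promoter windows of 36 members, by bases from the annotated start at 0; each grey line is 1 window. Most CHR letters, 26 of 38, lie within 50 bases of the start.

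Brg1 deletion left 41 of the 45 mitosis genes with a lower mean than controls, by small amounts, and none passed the authors' test. The median log2 ratio of the authors' means, deleted over control, was -0.35, with a range from -0.65 for Bub1b to 0.09 for Kif2c, while the median of all listed genes was -0.0014 and 50.1% of them lay below 0. At an adjusted p under 0.05 the authors' deposited table called 0 of 45 members, where it called 1.47% of all genes, 0.742% lower and 0.732% higher. At an unadjusted p under 0.05 it held 1 member, Bub1b, where 9.52% of all genes passed in either direction and 5.29% in the lower one. The members' share past that mark was below the background. In limma on the resolved reads, 0 of 25 members and 0 of 16738 genes passed at an adjusted p under 0.05. As no gene passed, that count says nothing about the members in particular. At an unadjusted p under 0.05, 2 members, Birc5 and Cdk1, passed in that limma fit, against 16.7% of the genes. The median limma log2 ratio over the 25 was -0.59 without the shallower deleted library and -0.08 without the deeper one.

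**Figure D2:**
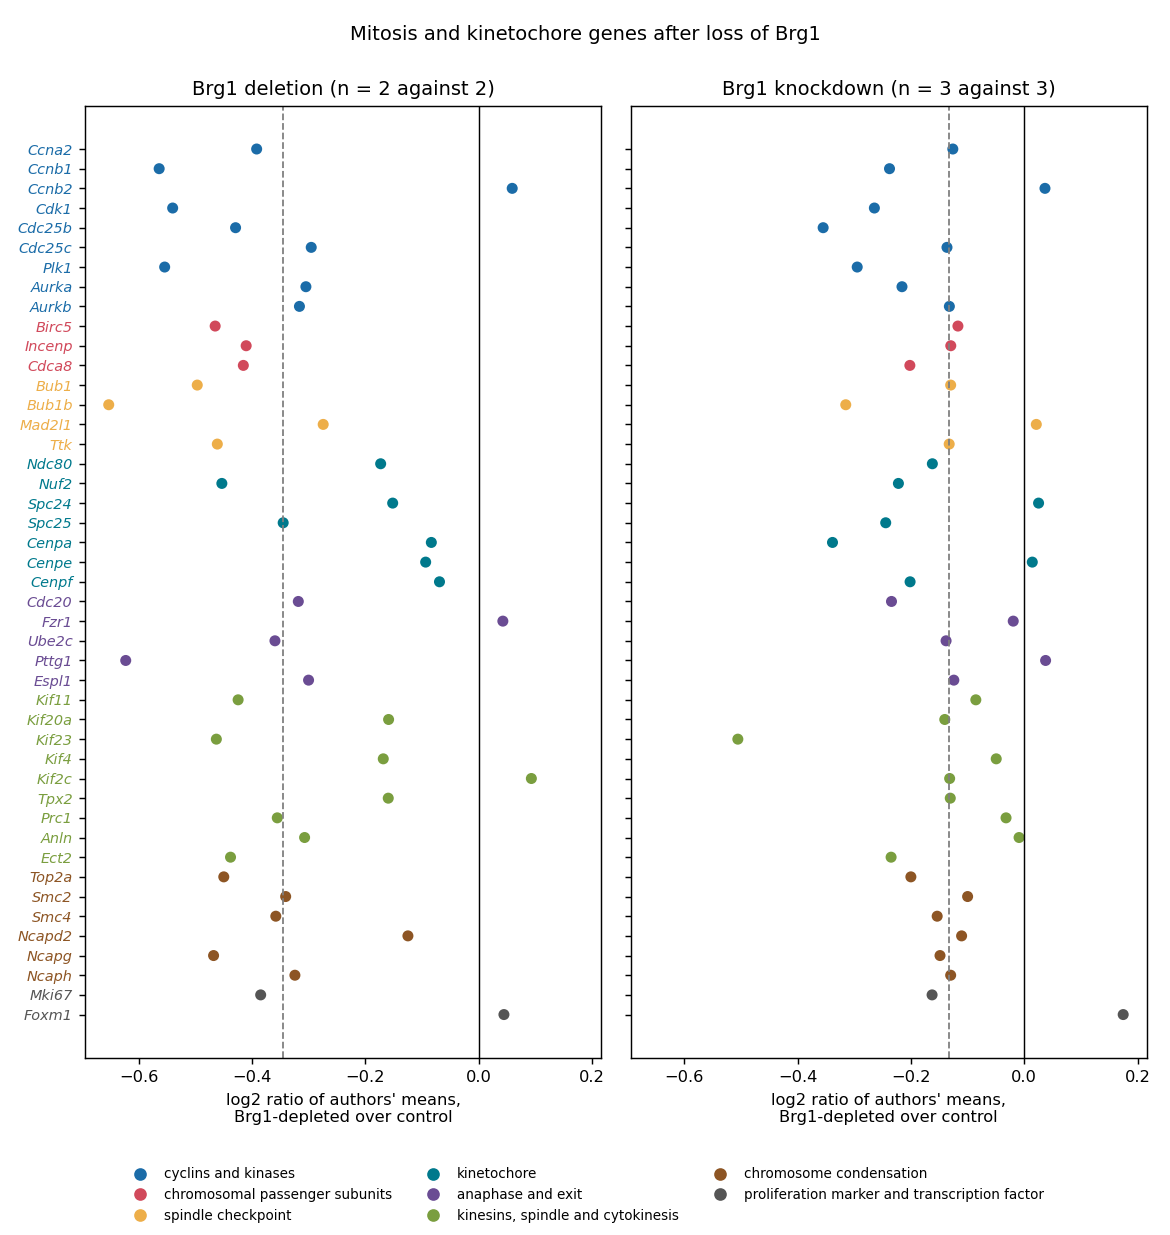
Log2 ratio of the authors' means, Brg1-depleted over control, for each of the 45 members, coloured by role, after deletion (left) and knockdown (right); dashed lines mark the medians, -0.35 and -0.13. Points left of the solid line at 0 are lower in Brg1-depleted cells: 41 members after deletion and 39 after knockdown, none called.

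The deleted libraries were unlike each other for these genes. In 25 members the means had a single whole-read solution in both groups. Their median log2 level over the control mean was -0.59 in the deeper Brg1-deleted library and -0.10 in the shallower one, and 0.02 and -0.02 in the deeper and the shallower control. The deeper deleted library was below the shallower deleted one in 24 of 25 members, where 53.7% of resolved genes had that order, and below both controls in 24. The deeper control was below the shallower one in 11 of 25, against 46.4% of resolved genes. The shallower deleted library was below both controls in 10 of the 25 and above both in 5. The Brg1-deleted libraries differed by a median of 30.1% of their mean and the controls by 13.1%, against 22.3% and 20.8% over all genes resolved in this way whose mean reached 10. Both deleted libraries lay below both controls in 9 of 25 members (36%), where 26.9% of 11785 resolved genes did so, and in no member did both lie above. Groups that did not overlap in either direction made up 54.6% of those genes. Without the deeper deleted library the median over these members was -0.10, and without the shallower one it was -0.59. The libraries also differed in transcripts of other cells. The 14 resolved myeloid markers summed to 1847 and 1137 normalized reads in the deeper and shallower deleted library and to 2282 and 3669 in the controls, and 5 mast cell and basophil markers to 400.0 and 111.6 in the deleted libraries and 130.7 and 392.3 in the controls. Their part in the mitotic levels was not tested.

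**Figure D3:**
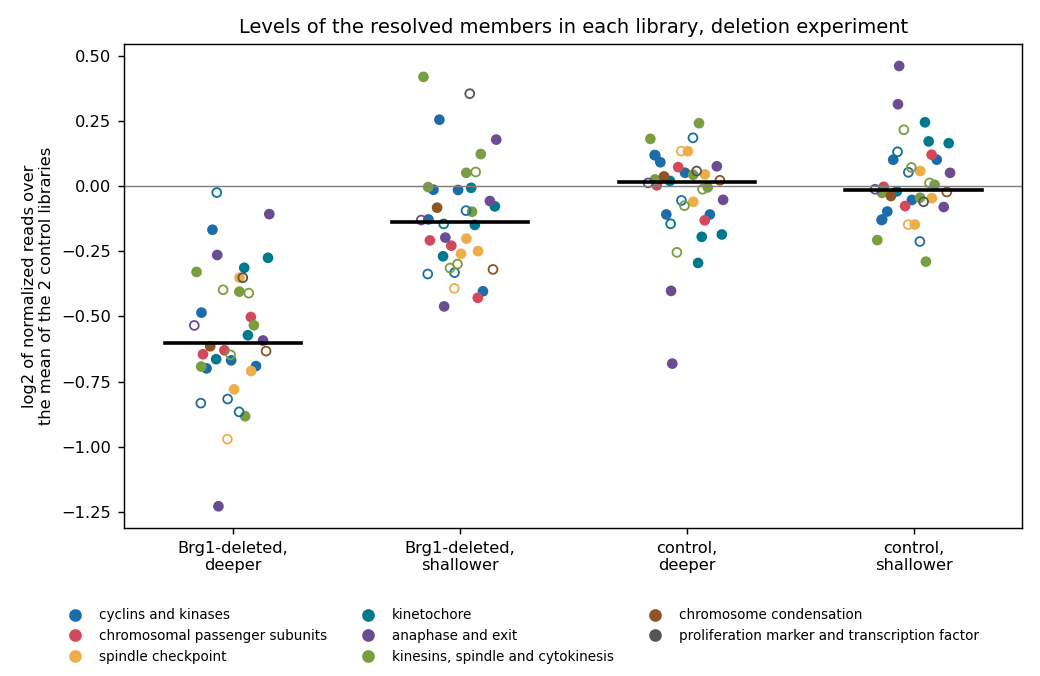
Log2 of normalized reads over the mean of the control libraries for 36 resolved members in each library of the deletion experiment; filled points have 1 whole-read solution, open points have 1 solution in which libraries differ by under 4-fold, and bars are medians. The deeper Brg1-deleted library stands lowest and the shallower one overlaps the controls.

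For 11 further members a second, lopsided solution existed in a group, and the one in which the libraries differ by under 4-fold was taken. Of resolved genes whose mean reached 100, 2.06% break that limit, so these 11 are less certain. The other 9, among them the most abundant (Top2a, Mki67, Smc4 and Ncapd2), are given by the authors' means alone. Library values below are in normalized reads, the deeper library of a group first.

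Among cyclins and entry kinases, 8 of 9 had a lower mean after deletion, with a median log2 ratio of -0.39. Over the 5 with 1 solution it was -0.0148 without the deeper deleted library and -0.67 without the shallower one. Cdk1, the kinase that drives entry into mitosis, had 968 and 1180 normalized reads in the deleted libraries and 1448 and 1675 in controls. The groups did not overlap, and the deposited p was 0.0973 before adjustment and 0.8801 after it in the authors' deposited table. Its partner cyclin gene Ccnb1 had 1367 and 1927 in the deleted libraries and, with the solution within 4-fold, 2644 and 2225 in controls. Ccnb1 was below the controls in both deleted libraries, with a log2 ratio of the means of -0.56.

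Ccnb2, which encodes the other B-type cyclin of dividing cells, did not share that position. It had 1534 and 2056 normalized reads in the deleted libraries and 1598 and 1848 in controls, so the deleted libraries lay on both sides of the controls, and the log2 ratio of the means was 0.06. Its pseudogene Ccnb2-ps is listed separately, with authors' means of 49.8 in deleted cells and 40.6 in controls, and whether the 2 share reads was not tested. Ccna2, the cyclin of S and G2 phase, could not be resolved and had authors' means of 3350 in deleted cells and 4396 in controls.

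The polo-like kinase gene Plk1 had 1105 and 1547 normalized reads in the deleted libraries and 1874 and 2020 in controls by the solution within 4-fold, with no overlap. Aurka, the kinase of the spindle poles, had 511 and 805 in the deleted libraries and 842 and 784 in controls. Aurkb, the kinase of the chromosomal passenger complex, had 1086 and 1747 in the deleted libraries and 1879 and 1648 in controls. In both Aurora kinases the deeper deleted library was below both controls and the shallower one stood between them. The phosphatase genes Cdc25b and Cdc25c, whose products activate Cdk1, followed the same order. Cdc25c had 179.7 and 230.3 in the deleted libraries and 273.0 and 230.2 in controls. Cdc25b had 1723 and 2942 in the deleted libraries and 3571 and 2710 in controls by the solution within 4-fold.

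The subunits that join Aurkb in the chromosomal passenger complex all had lower means. In each of them both deleted libraries were below both controls, as in 26.9% of all resolved genes. Birc5, or survivin, had 947 and 997 normalized reads in the deleted libraries and 1225 and 1458 in controls. Incenp, the scaffold of the complex, had 2272 and 3076 in the deleted libraries and 3561 and 3547 in controls. Cdca8, or borealin, had 1149 and 1518 in the deleted libraries and 1870 and 1686 in controls. Their log2 ratios of the means lay between -0.47 and -0.41, and the authors' deposited table gives each an adjusted p of 1.0.

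All 4 spindle checkpoint genes had lower means after deletion, with a median of -0.48. Bub1b, which encodes the checkpoint protein BubR1 (ENSMUSG00000040084, mm10 chromosome 2, 118598211 to 118641591), had 1643 and 2454 normalized reads in the deleted libraries and 3535 and 2907 in controls by the solution within 4-fold. It had the lowest p of the 45 members in the authors' deposited table, 0.036, which became 0.5499 after adjustment over all genes. Its kinase relative Bub1 had 702 and 1007 in the deleted libraries and 1323 and 1089 in controls. Ttk, the kinase Mps1 that starts the checkpoint, had 508 and 699 in the deleted libraries and 857 and 805 in controls. Mad2l1, which binds and holds Cdc20, had 738 and 819 in the deleted libraries and 903 and 980 in controls. In each of the 4 genes both deleted libraries were below both controls, as in 26.9% of all resolved genes.

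All 7 kinetochore genes had lower means after deletion, with a median of -0.15. Over the 4 with 1 solution that median was -0.26. It was -0.44 without the shallower deleted library and -0.11 without the deeper one. Without the deeper control it was -0.41, and without the shallower control -0.07. Of the NDC80 complex, which grips microtubules, Nuf2 had 673 and 885 normalized reads in the deleted libraries and 1081 and 1052 in controls, with no overlap. Its partner Ndc80 had 845 and 969 in the deleted libraries and 899 and 1146 in controls. Spc24 had 523 and 647 in the deleted libraries and 529 and 770 in controls, and Spc25 had 452 and 606 in the deleted libraries and 587 and 757 in controls. The groups overlapped in these last 3, although all 4 proteins form 1 complex. Cenpa, the histone H3 variant that marks centromeres, had 1820 and 1675 in the deleted libraries and 1675 and 2029 in controls by the solution within 4-fold, and the groups overlapped. For the large kinetochore proteins the authors' means were 3138 in deleted cells and 3348 in controls for Cenpe, a kinesin motor, and 4398 in deleted cells and 4615 in controls for Cenpf.

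Of the genes of anaphase and exit, 4 of 5 had lower means after deletion, with a median of -0.32. Over the 4 with 1 solution that median was -0.33. It was 0.05 without the shallower control and -0.45 without the deeper one. Cdc20, the mitotic activator of the anaphase-promoting complex, had 1494 and 1977 normalized reads in the deleted libraries and 2182 and 2146 in controls by the solution within 4-fold, with no overlap. Fzr1, or Cdh1, the activator that takes over late in mitosis and in G1, had 1183 and 1442 in the deleted libraries and 1229 and 1320 in controls, so the deleted libraries lay on both sides of the controls. Ube2c, the ubiquitin-conjugating enzyme of the complex, had 1784 and 1556 in the deleted libraries and 1621 and 2664 in controls. The controls differed from each other by more than the group means did. Espl1, separase, which cuts cohesin, had 1151 and 1668 in the deleted libraries and 1829 and 1641 in controls.

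Pttg1, securin, the inhibitor of separase (mm10 chromosome 11, 43420250 to 43426251), varied most between libraries of 1 group. It had 120.1 and 245.4 normalized reads in the deleted libraries and 175.5 and 387.3 in controls. The groups overlapped, and the gap between libraries was 68.6% of the mean in deleted cells and 75.3% in controls, so the log2 ratio of -0.62 is smaller than the spread within either group.

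Genes of kinesins, the spindle and cytokinesis had a median of -0.31, with 8 of 9 below 0. Over the 5 with 1 solution that median was -0.17. It was 0.05 without the deeper deleted library and -0.53 without the shallower one. Kif23 and Ect2 act in cytokinesis. Kif23, a subunit of centralspindlin, had 1192 and 1518 normalized reads in the deleted libraries and 1773 and 1962 in controls by the solution within 4-fold, without overlap. Ect2, which activates RhoA at the cleavage furrow, had 734 and 1265 in the deleted libraries and 1601 and 1108 in controls, with overlap. Anln, the furrow scaffold anillin, had 691 and 1114 in the deleted libraries and 1137 and 1097 in controls.

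The motors differed among themselves. Kif4, a chromosome-bound kinesin, had 1032 and 1628 normalized reads in the deleted libraries and 1490 and 1500 in controls, and Kif20a, a kinesin of the central spindle, had 1406 and 1928 in the deleted libraries and 1918 and 1804 in controls. In both the deleted libraries lay on either side of the controls. Kif2c, a microtubule-depolymerising kinesin of the centromere, had 672 and 1129 in the deleted libraries and 957 and 732 in controls, the highest log2 ratio of the means among the 45, 0.09. Tpx2, which activates Aurka on the spindle, had 2351 and 3244 in the deleted libraries and 3099 and 3151 in controls by the solution within 4-fold. Prc1, which bundles the midzone microtubules, had 1587 and 1682 in the deleted libraries and 1753 and 2429 in controls by the same rule, without overlap. For Kif11, the motor that pushes the spindle poles apart, the authors' means were 3379 in deleted cells and 4535 in controls.

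All 6 genes of chromosome condensation had lower means after deletion, with a median of -0.35. Ncaph, the 1 of them with a single solution, had a log2 ratio of -0.08 without the deeper deleted library and -0.61 without the shallower one. Top2a, the topoisomerase that untangles chromatids, had authors' means of 15143 in deleted cells and 20684 in controls. For the shared condensin subunits the authors' means were 3361 in deleted cells and 4256 in controls for Smc2, and 5782 in deleted cells and 7411 in controls for Smc4. Of the condensin I subunits, Ncaph had 1073 and 1551 normalized reads in the deleted libraries and 1686 and 1600 in controls, and Ncapg 1282 and 1593 in the deleted libraries and 2019 and 1957 in controls by the solution within 4-fold. Neither overlapped. Ncapd2, the third condensin I subunit, differed less, with authors' means of 6025 in deleted cells and 6571 in controls.

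The proliferation marker Mki67, which coats mitotic chromosomes, had authors' means of 19592 in deleted cells and 25581 in controls, a log2 ratio of -0.38. Foxm1, the transcription factor that acts on many G2/M genes, had 1688 and 2754 normalized reads in the deleted libraries and 2242 and 2066 in controls by the solution within 4-fold, a log2 ratio of the means of 0.04. The deeper deleted library was below and the shallower above both controls.

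Brg1 knockdown in Rag1-/- cells gave smaller differences. The means were lower than with the control shRNA in 39 of 45 members, with a median log2 ratio of -0.13, while all listed genes had a median of -0.0028 and 50.3% below 0, or 51.4% of genes with a mean of at least 10. The authors' deposited table called 0 of 45 at an adjusted p under 0.05, where it called 0.218% of all genes, 0.0406% lower and 0.177% higher, and every member stood at an adjusted p of 1.0. At an unadjusted p under 0.05 it held 1 member, Kif23, where 2.74% of genes passed in either direction and 1.08% in the lower one. In 40 of 45 members the difference was smaller in size than after deletion. The quartiles over all genes with a mean of at least 10 were narrower too. They were -0.39 and 0.39 on deletion and -0.21 and 0.22 on knockdown, so smaller values are not particular to the members. The 2 experiments use separate controls and were normalized separately, and the difference between them was not tested.

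Kif23 had the lowest value of the knockdown. Its authors' means were 1380 with the Brg1 shRNA and 1958 with the control shRNA, a log2 ratio of -0.51, for which the authors' deposited table gives a p of 0.0364, or 1.0 after adjustment. Cdc25b followed, with authors' means of 2067 with the Brg1 shRNA and 2643 with the control shRNA and a log2 ratio of -0.35. Cenpa, nearly level after deletion at -0.08, stood at -0.34, with authors' means of 1430 with the Brg1 shRNA and 1808 with the control shRNA. Bub1b stood at -0.32, Plk1 at -0.29, Cdk1 at -0.26 and Ccnb1 at -0.24, in log2 ratios of the authors' means.

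Members above 0 on knockdown were 6, all by little: Foxm1 at 0.17, Pttg1 and Ccnb2 at 0.04, Spc24 and Mad2l1 at 0.03 and 0.02, and Cenpe at 0.01. Foxm1 had authors' means of 2206 with the Brg1 shRNA and 1955 with the control shRNA. Ccnb2 and Foxm1 lay above 0 in both experiments and 37 members lay below 0 in both. Because libraries cannot be resolved for the knockdown, whether its groups overlap for a gene is not known. The deposited p depends on the size of a difference as well as on spread, so it does not measure spread alone.

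By role, the medians on knockdown were -0.22 for cyclins and kinases, -0.20 for kinetochore genes, -0.14 for chromosome condensation, -0.13 each for passenger subunits, the spindle checkpoint and kinesins, and -0.12 for anaphase and exit. Condensation genes kept close together, from -0.20 for Top2a to -0.10 for Smc2. Myeloid markers were nearly level here, with sums of 576.5 normalized reads with the Brg1 shRNA and 558.2 with the control shRNA and 9 of 16 below 0.

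**Figure D4:**
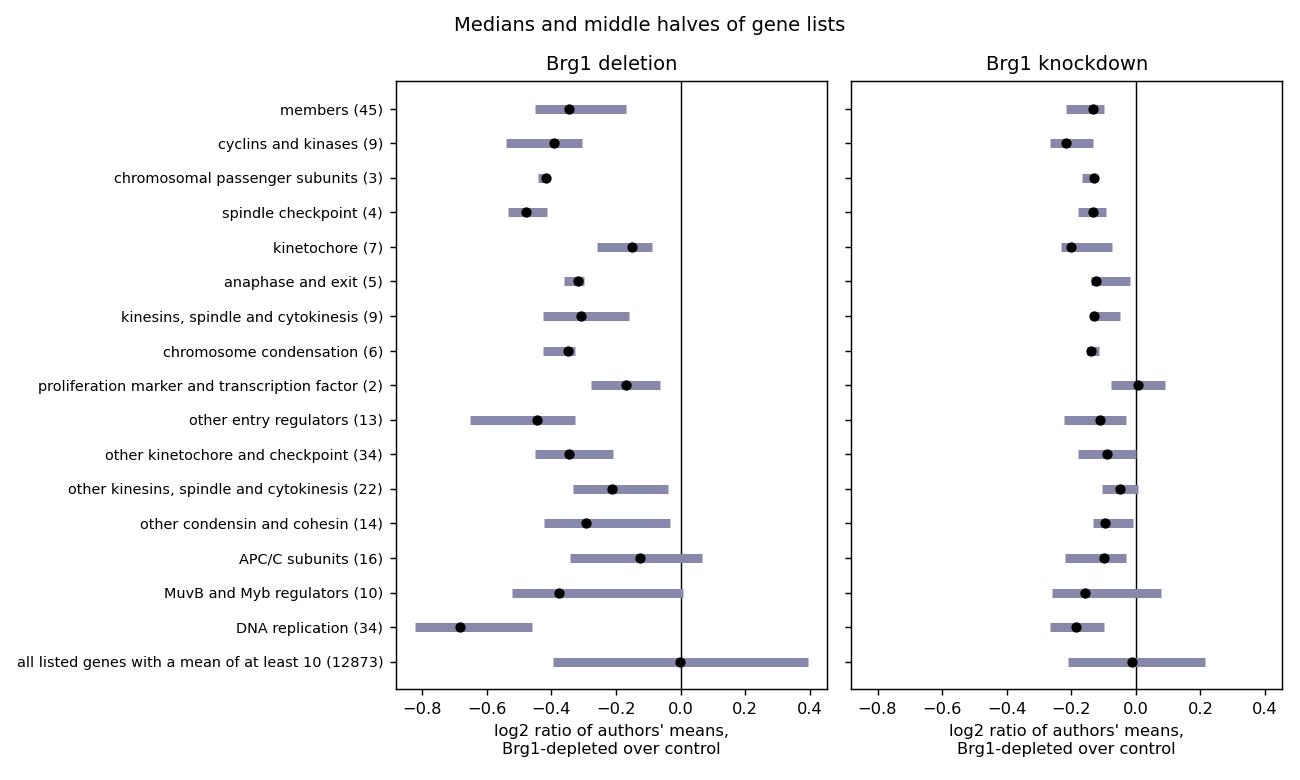
Median (points) and quartiles (bars, from the lower to the upper) of the log2 ratio of the authors' means, Brg1-depleted over control, for all members, each role, other mitosis lists, DNA replication genes and all listed genes with a mean of at least 10, after deletion (left) and knockdown (right); list sizes in brackets. Members have a median of -0.35 and -0.13, DNA replication genes -0.68 and -0.18, and all genes lie near 0.

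Other genes of the same machinery took similar values. Of 109 genes in 6 lists of other mitosis genes, 91 lay below 0 after deletion with a median of -0.31, and 81 lay below 0 on knockdown with a median of -0.09. A single one of them was called in the authors' deposited table, Wapal, which encodes a factor that releases cohesin from chromosomes, and it rose on deletion. Its authors' means were 937 in deleted cells and 381 in controls, for which the authors' deposited table gives 0.027 as the adjusted p, and on knockdown 600 with the Brg1 shRNA and 352 with the control shRNA, which was not called. Among other entry regulators, 12 of 13 lay below 0 after deletion, with Cdc25a, the Cdk phosphatase of S phase and mitosis, at authors' means of 535 in deleted cells and 1097 in controls, where the authors' deposited table gives 0.1056 as the adjusted p. Among other kinetochore and checkpoint genes 32 of 34 lay below 0, and Zwint, a kinetochore protein, had authors' means of 377 in deleted cells and 723 in controls.

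Of 10 genes of the MuvB and Myb regulators, 7 lay below 0 after deletion. Mybl2, the B-Myb factor that joins MuvB at G2/M promoters, had authors' means of 719 in deleted cells and 1560 in controls, a 2.17-fold difference for which the authors' deposited table gives 0.1299 as the adjusted p. On knockdown Mybl2 had 1104 with the Brg1 shRNA and 1524 with the control shRNA, and the authors' deposited table gives a p of 0.0442, or 1.0 after adjustment. Tfdp1, the partner of E2F factors, had authors' means of 1150 in deleted cells and 2492 in controls. Subunits of the anaphase-promoting complex, with its helpers Ube2s and Fbxo5, were nearest to all genes, with 11 of 16 below 0 and a median of -0.13 after deletion. Over the 13 with 1 solution the median was -0.0284 with size factors and 0.0079 when reads were scaled by library totals.

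Genes of DNA replication, which act earlier in the cycle, had a lower median than the mitosis genes on deletion. It was -0.68 with 33 of 34 below 0, 0 of 34 were called in the authors' deposited table, and 15 had an unadjusted p under 0.05, all lower, where 1 of 45 mitosis genes and 5.29% of all genes did. Both deleted libraries lay below both controls in 18 of 22 resolved replication genes, against 9 of 25 resolved mitosis genes and 26.9% of all resolved genes. The difference between these lists was not tested. The deeper deleted library was below the shallower one in all 22 of these replication genes too, with medians over the control mean of -0.89 in the deeper and -0.41 in the shallower library.

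Per kilobase of exon, the members spanned a 19.6-fold range in the deletion controls and a 57.3-fold range with the control shRNA, where Pttg1 was lowest. In the deletion controls all 45 were above the median of genes with a mean of at least 10, which was 86.5 normalized reads per kb, and the members' median was 453. Mki67 and Top2a had the highest levels per kb in all 4 groups. Mki67 had 1971 with the Brg1 shRNA and 2207 with the control shRNA, in normalized reads per kb. Cdc25c had the lowest level of the deletion controls. The exon length covers all annotated exons of a gene, so it understates the level of genes with many unused exons.

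**Figure D5:**
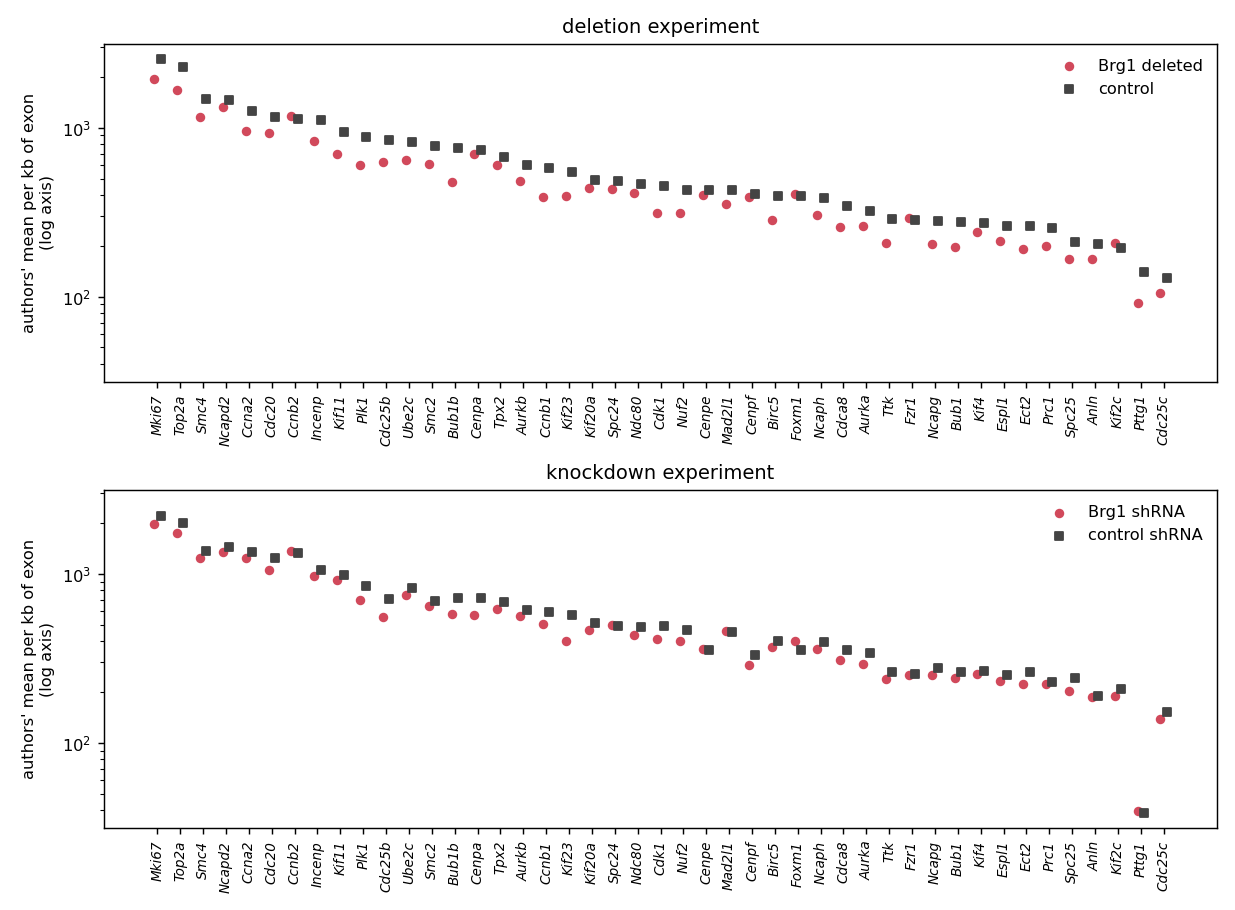
Authors' mean in normalized reads per kb of exon (log axis) for the 45 members, ordered by level in the deletion controls, in the deletion experiment (above) and the knockdown experiment (below); circles are Brg1-depleted cells and squares controls. The order is similar in both. Pttg1 ranks 44 of 45 in the deletion controls and is the lowest in deleted cells, and it is the lowest by far in the knockdown experiment.

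Between the control groups, Rag1-/- cells with the control shRNA and Brg1+/+ x ER-Cre cells, which were normalized in separate tables and treated differently, 44 of 45 members lay within 1.5-fold once the median over 11953 genes in both tables was set to 0. Pttg1 was the exception. Its authors' means were 79.0 with the Brg1 shRNA and 77.0 with the control shRNA in Rag1-/- cells, against 182.7 in deleted cells and 281.4 in controls of the other experiment, so its control level was 3.65-fold lower in the Rag1-/- table. Against the deeper and the shallower deletion control alone it was 2.28-fold and 5.03-fold lower. Relative to the median of all genes the log2 difference of Pttg1 was -1.60, and the next lowest member, Cenpf, stood at -0.03. Before that median was set to 0, the members' median log2 ratio, Rag1-/- over the other controls, was -0.0013, against -0.265 over the 11953 genes. The comparison was not tested, since it runs across tables.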

How the data were processed

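RNA-seq of 10 libraries was used; 16 other samples of the series were not analysed here. The submitters' processing notes name CASAVA, RSEM, DESeq and mm10, without versions. Per the file headers and values, each deposited table holds 1 signal per group and gene (the mean of reads divided by a size factor), the authors' log2 ratio of the means, p-value and adjusted p-value, exon length and a confounded mark whose meaning is not given in the sources used here and which 19 members carry. Whether counting used strand is not stated. The authors' adjusted p-value at 0.05 is the test used.

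From the deletion means, whole reads of both libraries were recovered (a mean is a sum of whole multiples of each library's step, within 6.0e-05). Of 19404 genes 94.4% had 1 solution in both groups, where 0.025% of random values up to 100 had any. The members' deletion means all lie above 100, so that share does not gauge them. More solutions arise at high means, as for Top2a with 7 in deleted cells and 11 in controls. For 11 more members the 1 solution in which libraries differ by under 4-fold was taken, a choice made after seeing the data. Libraries are called deeper and shallower because no replicate number can be attached. limma 3.58.1 (R 4.3.3) with a mean-variance trend was run on log2 of reads plus 0.5 over size factor for genes with 1 solution and a mean of at least 1, after it was tested on simulated data. Other steps ran in Python 3.11.15 (scipy 1.17.1, pandas 2.3.3, numpy 2.4.6), with figures by matplotlib 3.10.9. Columns of unmapped samples numbered 0.

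The members, the 21 gene lists and the choice of alternatives were made with earlier results of these data known. All members may be named; of each list of other mitosis genes and of the DNA replication list, up to 2 genes per experiment with the lowest deposited p, with Smarca4 and defining cell markers. The T and innate lymphoid markers summed to 220.2 normalized reads in deleted cells and 583.6 in controls. Of these 12 markers, 9 lay below 0, and the authors' deposited table called 2 lower and 0 higher. Stromal markers summed to 25.3 in deleted cells and 34.8 in controls, and erythroid markers, 2 of 6 listed, to 5.5 in deleted cells and 4.5 in controls. Of the 12 B lineage markers, 1 is not reported here.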

Additional observations from a re-analysis of the deposited data

How the results depend on the processing

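At an unadjusted p under 0.05 the calls were 1 of 45 members in each experiment, 1847 of all genes after deletion and 541 on knockdown, where the adjusted p gave 0 members, 286 genes and 43 genes. Without genes that carry the confounded mark, 162 and 28 genes were called. limma on the recovered reads called 0 genes, with 2801 at an unadjusted p under 0.05, also 0 when reads were scaled by library totals (an alternative chosen after seeing the data), and 0 without either deleted library, 2 without the deeper and 47 without the shallower control, where a lone library is assumed to vary like the other group. Over the 25 members with 1 solution the median after deletion lay between -0.59 and -0.10 with 1 library left out, the first without the shallower and the second without the deeper Brg1-deleted library, and over all 45 it was -0.13 on knockdown with a pseudocount of 1 or 10.

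With 1 library of the deletion left out in turn, the sign of the log2 ratio turned for 12 of 36 members, and the cause was not tested. It ran from -0.1675 to 0.2547 for Ccnb2, -0.3376 to 0.0125 for Ndc80, -0.3966 to 0.1430 for Spc24, -0.2152 to 0.0610 for Cenpa, -0.1076 to 0.1784 for Fzr1, -0.6738 to 0.0425 for Ube2c. It ran from -1.2285 to 0.0582 for Pttg1, -0.4050 to 0.0510 for Kif20a, -0.5341 to 0.1230 for Kif4, -0.3294 to 0.4191 for Kif2c, -0.4107 to 0.0541 for Tpx2, -0.3513 to 0.3546 for Foxm1. Medians over genes with 1 solution also turned. They ran from -0.4468 to 0.0503 for anaphase and exit genes and -0.5341 to 0.0510 for kinesin, spindle and cytokinesis members. For the other genes of that kind they ran from -0.3640 to 0.0569, and for subunits of the anaphase-promoting complex from -0.2158 to 0.0017. The last median was -0.0284 with no library left out and 0.0079 with scaling by library totals. Leaving out the deeper deleted library turned Kif20a, Kif4 and Tpx2, the shallower deleted one Ccnb2, Fzr1, Kif2c and Foxm1, the deeper control Ccnb2 and Fzr1, and the shallower control Ndc80, Spc24, Cenpa, Ube2c, Pttg1, Kif2c and Foxm1. Roles did not keep one order: without the deeper control the medians were -0.35 for the spindle checkpoint, -0.41 for kinetochore genes and -0.45 for anaphase and exit. No paired analysis was possible because the columns carry no replicate number. The knockdown means could not be resolved by library, so no library was left out there.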
